A study of Mus musculus with 4 samples.

Results

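BRDT islands found only in round spermatids are stretches of the genome where BRDT chromatin immunoprecipitation was enriched in round spermatids and no enriched stretch was listed nearby in pachytene spermatocytes. They are the autosomal islands of the round spermatid list (chromosomes 1 to 19) that no pachytene island overlaps and that have at least 10000 bp between them and the nearest pachytene island. Of 5558 autosomal round spermatid islands, 4169 met this rule, or 75.0% (exact Clopper-Pearson 95% interval 73.8 to 76.1). A further 957 islands overlapped a pachytene island by at least 1 bp, and 432 lay under 10000 bp from one without overlap. The islands were chosen by the positions in both lists, so their number and their distance from pachytene islands are a description and were not tested. The same rule applied to the pachytene list selected 4104 of 5424 autosomal islands, or 75.7% (95% interval 74.5 to 76.8). A share of this size was thus not particular to round spermatids.

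BRDT is the testis-specific member of the BET family, whose paired bromodomains bind acetylated lysines on histone tails. Pachytene spermatocytes are meiotic cells in which homologous chromosomes are synapsed, whereas round spermatids are the haploid cells that follow the meiotic divisions. Round spermatids transcribe the genes for the acrosome, the flagellum and the transition proteins and protamines, and later, as they elongate, their histones are hyperacetylated and replaced.

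The study made 4 ChIP-seq libraries, all from mice of the strain 129 Sv/Ev of wild-type genotype, 1 with an anti-BRDT antibody raised by the submitters' laboratory and 1 with a control IgG for each cell type. Round spermatids came from 7 adult mice by gravity sedimentation and reached a purity of at least 90% when scored by DNA content. The cells called pachytene spermatocytes were an unfractionated tubule suspension from mice of 18 days, which per the labels' protocols also held spermatogonia, earlier spermatocytes and Sertoli cells, all of which they say do not express BRDT. Age, purification and stage therefore change together and cannot be told apart. Each BRDT library was used here as a list of island positions on the mouse build mm8, with no read count, enrichment or FDR per island. The IgG libraries were not analysed here, read depth is unknown, and the purity of the cells could not be checked from positions. With 1 library per stage there is no replicate check of any difference below, and an island missing from a list only means that none was called there. No gene models or genome of mm8 were used, so islands are given by position, without genes or sequence.

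The round-spermatid-only islands had the median width of the islands that overlap a pachytene island, with a lower 95th percentile. Their median width was 3200 bp, with quartiles of 2400 and 4400 bp, and 95% of them were no wider than 6800 bp. Islands that overlapped a pachytene island also had a median of 3200 bp, with quartiles of 2400 and 4600 bp. The islands near a pachytene island had a median of 3400 bp and an upper quartile of 4800 bp. The width not exceeded by 95% of islands was 7800 bp in the overlapping and 7690 bp in the near class. The widest island was nonetheless round spermatid only, at 50800 bp, against 40200 bp in the overlapping and 45000 bp in the near class. A wider island is more easily overlapped, so width is not free of the rule, and no test was made. Together the round-spermatid-only islands covered 14.7 Mb, or 73.7% of the 20.0 Mb covered by all autosomal round spermatid islands. The matching set of the other stage, the 4104 autosomal pachytene islands that meet the same rule against the round spermatid list, was narrower, with a median of 2600 bp and 11.9 Mb covered. The whole pachytene list had the same lower median of 2600 bp, so the gap in width lies between the lists and not between these sets in particular.

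**Figure D1:**
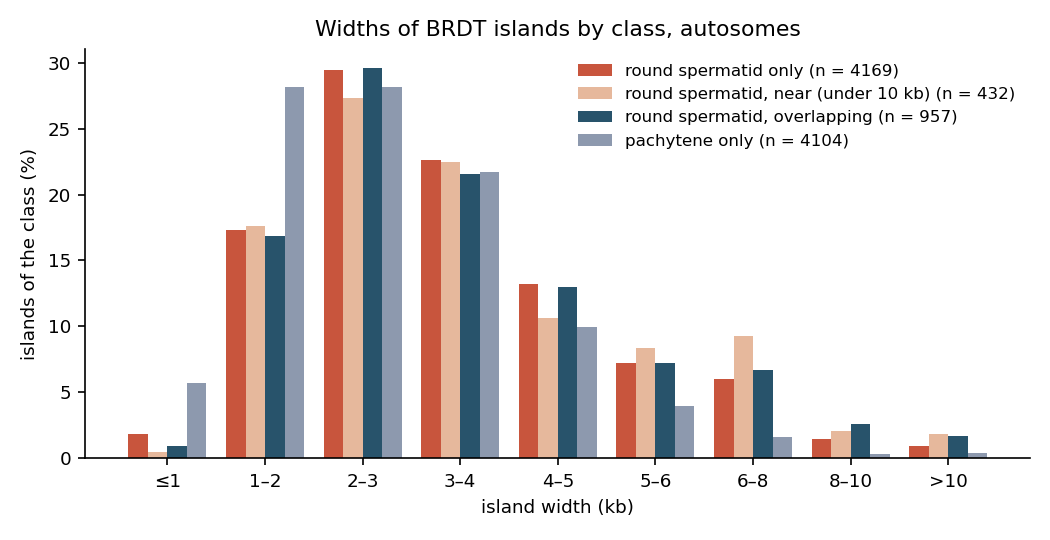
Share of islands (%, vertical axis) in each width bin (kb, horizontal axis, unequal bins) for 4 classes of autosomal BRDT island. All 4 classes have their largest share at 2 to 3 kb. For pachytene-only islands that share is 28.14%, and the next narrower bin, up to 2 kb, holds nearly as many (28.12%). The same narrower bin holds 17.3% of round-spermatid-only, 17.6% of near and 16.8% of overlapping islands.

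Very wide and very narrow islands were few. In the whole autosomal round spermatid list 1.13% of islands were wider than 10 kb, and among the round-spermatid-only islands it was 39 of 4169, or 0.935% (95% interval 0.666 to 1.28). Among islands overlapping a pachytene island it was 16 of 957, or 1.67% (95% interval 0.959 to 2.70). Among near islands it was 8 of 432, or 1.85% (95% interval 0.803 to 3.62). These intervals overlap. At the other end, 0.702% of the whole list and 34 round-spermatid-only islands (0.816%) were narrower than 1000 bp. The narrowest were 5 islands of 400 bp, on chromosome 5 from 33045601, chromosome 6 from 103614801, chromosome 8 from 20403401, chromosome 13 from 4560401 and chromosome 19 from 23424401. All 5 stood in the last decile of the deposited list, at places 5246 to 5547 of 5558.

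The deposited list is not sorted by position, and the order of its rows gave a further description of the islands that the rule did not use. What the order stands for is not given in the sources used here. Width fell along it: the round-spermatid-only islands had a median of 6000 bp in the first decile of its rows (10% of the list), 3000 bp in the fifth decile and 2800 bp in the last. Within each decile, islands overlapping a pachytene island had nearly the same median, 6000, 3000 and 2900 bp in the same deciles. Across the 4169 round-spermatid-only islands, Spearman's rho between place and width was -0.46, a description over islands of 1 library. The pachytene list behaved otherwise in width. Its median width was 3000 bp in its first decile, 2400 bp in the fifth and 3200 bp in the last, so the order of that list may not stand for the same quantity.

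Round-spermatid-only islands filled every part of the round spermatid list, with a somewhat smaller share at its head. They made up 69.4% of the first decile (386 of 556 islands, 95% interval 65.4 to 73.2) and 78.6% of the last decile (436 of 555, 95% interval 74.9 to 81.9). Overlapping islands went the other way, from 20.0% of the first decile to 13.7% of the last, and neither trend was tested. In the pachytene list the pachytene-only share likewise went from 72.2% of the first decile to 77.7% of the last. The share overlapping a round spermatid island went from 21.9% to 11.8% there. The first 500 autosomal rows are 9.00% of the round spermatid list, and 344 of the 4169 round-spermatid-only islands (8.25%, 95% interval 7.43 to 9.13) were among them. The share among overlapping islands was 104 of 957 (10.9%, 95% interval 8.97 to 13.0), and the difference was not tested. The first 20 rows held 15 round-spermatid-only islands and the first 100 held 69. Of the other islands in the first 100 rows, 11 lay under 10000 bp from a pachytene island and 20 overlapped one. Round-spermatid-only islands make up 75.0% of the whole autosomal list.

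**Figure D2:**
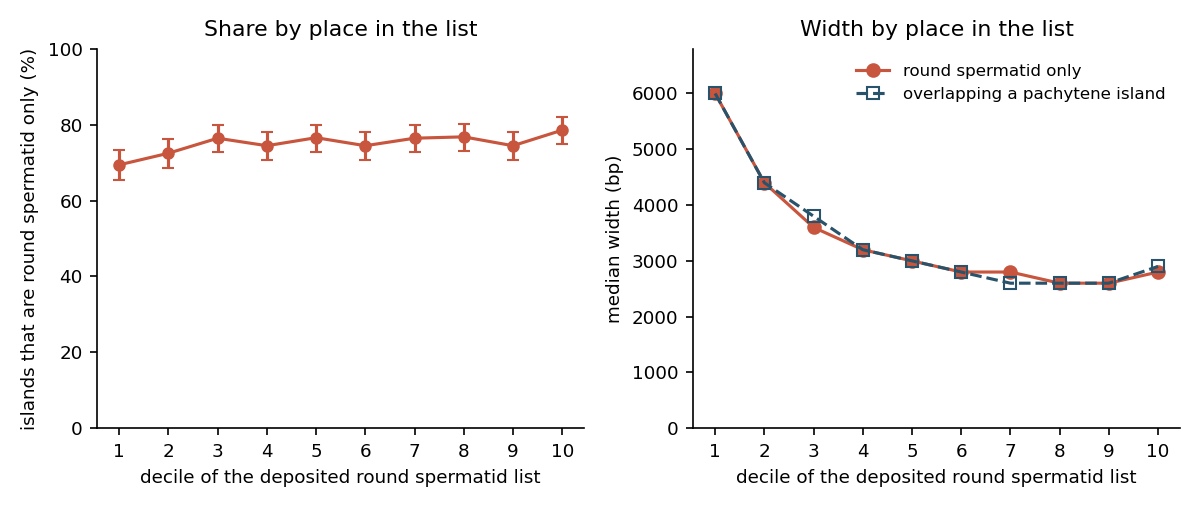
Left, share of autosomal round spermatid islands that are round spermatid only (%, with exact 95% intervals) in each decile of the deposited list. Right, median width (bp) of round-spermatid-only islands and of islands overlapping a pachytene island in the same deciles. The share runs from 69.4% in the first decile to 78.6% in the last, and both width curves fall together from 6000 bp.

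The islands at the head of the list are named here because of their place, a choice made after their values were seen. The first row of the list was a round-spermatid-only island on chromosome 5 from 120597401 to 120609400, 12.0 kb wide and 260.0 kb from the nearest pachytene island. It had a round-spermatid-only island on either side, from 120594601 to 120596600 (2000 bp) and from 120610001 to 120614000 (4000 bp), which stood far lower, at places 4492 and 1881. The second row lay on chromosome 2 from 154235801 to 154246800, 11000 bp wide, with the nearest pachytene island 116.0 kb away. The third ran from 72945201 to 72954600 on chromosome 1, a width of 9.4 kb, and lay 118.4 kb away. The fourth and sixth lay on chromosome 16, from 10699201 to 10708000 (8.8 kb wide, 211.4 kb away) and from 17805401 to 17816400 (11000 bp wide, 18.2 kb away). The fifth lay on chromosome 11 from 33828001 to 33837800, 9.8 kb wide and 160.2 kb away. The first 6 rows were thus all wide islands, and 5 of them lay over 100 kb from any island of the pachytene list.

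The widest round-spermatid-only islands did not all stand at the head of the list. The widest pair were neighbours on chromosome 11, the wider one (50.8 kb) at 3049401 to 3100200 and the other (18.4 kb) at 3030401 to 3048800, and stood at places 1198 and 3813. Only 600 bp separated them, and they lay near the first position listed on any autosome, 2999801. The next was an island of 16.6 kb on chromosome 15 from 78210801 to 78227400, at place 19 and 266.6 kb from any other round spermatid island. It was both wide and early in the list. An island of 14.0 kb on chromosome 14 from 59320401 to 59334400 stood at place 234. On chromosome 2 the island from 164152801 to 164166000 (13.2 kb) stood at place 260. A second on chromosome 2, from 93776801 to 93789800 (13.0 kb), stood at place 1666 and only 11.6 kb from a pachytene island, close to the 10000 bp limit. Then came chromosome 17 from 46136801 to 46149800 (13.0 kb, place 64), and chromosome 5 from 64738601 to 64751000 (12.4 kb, place 790). After the first-listed island of 12.0 kb, the last of the 12 widest were 3 islands of 11.8 kb. They lay on chromosome 3 from 31407801 to 31419600 (place 183), chromosome 5 from 122388801 to 122400600 (place 119) and chromosome 6 from 54192401 to 54204200 (place 30). Of these 12 islands, 3 had places past 1000, both of those at the start of chromosome 11 among them.

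Every autosome had a round-spermatid-only island of at least 7.2 kb. Beyond those above, the widest was 11.4 kb on chromosome 1 from 185731001 to 185742400, 633.2 kb from any pachytene island. On chromosome 4 it was 10.8 kb from 151176601 to 151187400, on chromosome 7 it was 11.2 kb from 99775401 to 99786600, and on chromosome 8 it was 11.2 kb from 92315401 to 92326600. The one on chromosome 8 was remote from its own kind, with the nearest other round spermatid island 1053.0 kb away. On chromosome 9 the widest was 10000 bp from 107782801 to 107792800, on chromosome 10 it was 9.4 kb from 75733801 to 75743200, and on chromosome 12 it was 11000 bp from 105258201 to 105269200 (place 16). On chromosome 13 it was 9.4 kb from 59749001 to 59758400, on chromosome 18 it was 10.4 kb from 37943601 to 37954000, and on chromosome 19 it was 7.2 kb from 29027401 to 29034600. The island on chromosome 13 lay 12.0 kb from a pachytene island and the one on chromosome 18 lay 238.2 kb from one. Chromosome 19, the shortest autosome, thus had the narrowest of these islands, and chromosomes 11 and 15 the widest.

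Most round-spermatid-only islands lay far beyond the limit that defined them. The median distance to the nearest pachytene island was 124.0 kb, with quartiles of 49.8 and 313.8 kb and a longest distance of 7.75 Mb. The nearest pachytene island lay on the lower-coordinate side in 2114 cases and on the other side in 2055. Distances from 10 to 20 kb were found for 318 islands (7.63%), and 279 islands (6.69%, 95% interval 5.95 to 7.49) lay 1 Mb or more away. Pachytene-only islands were closer to the round spermatid list, with a median of 102.0 kb and 88 islands (2.14%, 95% interval 1.72 to 2.64) at 1 Mb or more. With a limit of 100 kb in place of 10000 bp, 2334 islands met the rule. The rule fixes the lower end of both distributions, and the difference at the upper end was not tested.

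**Figure D3:**
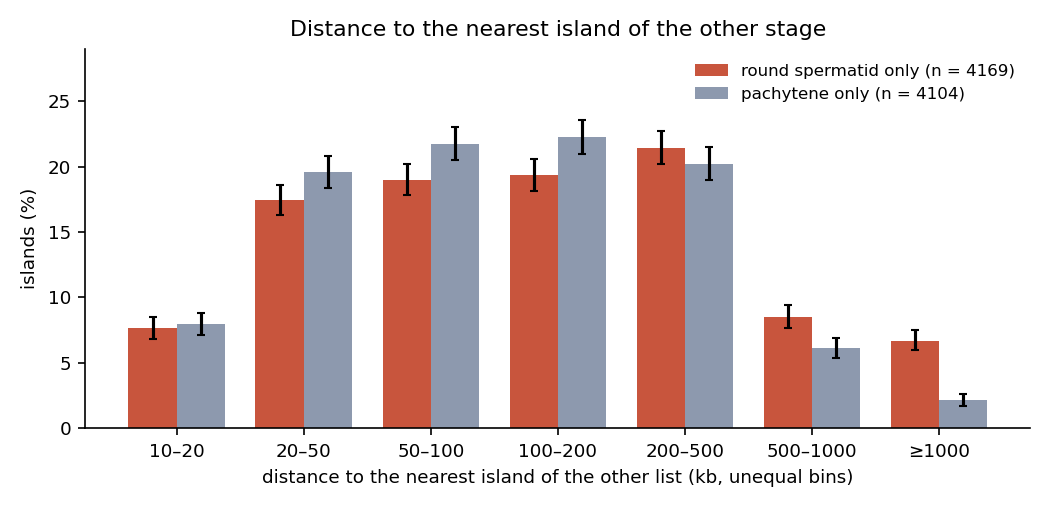
Share of islands (%, with exact 95% intervals) by distance to the nearest island of the other list (kb, unequal bins) for round-spermatid-only and pachytene-only islands. The bars differ most in the bin of 1000 kb and more, 6.69% against 2.14%.

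The remote islands were somewhat narrower and stood lower in the list. Between 10 and 20 kb from a pachytene island the median width was 3400 bp, and at 1 Mb or more it was 2800 bp. Of the islands 50 to 100 kb away, 81 of 791 (10.2%) were among the first 500 rows, against 12 of 279 (4.30%) at 1 Mb or more and 9.00% of the whole list. Distance grows where islands of both lists are sparse, and the part of regional density in these values was not tested.

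The 10000 bp limit cut through a smooth run of distances. Under 11000 bp away there were 27 members with a median width of 2800 bp, and from 9000 bp up to the limit there were 38 excluded islands with a median of 3000 bp. Just inside, at exactly 10000 bp, lay 5 islands, among them those on chromosome 2 from 151419801 to 151422400, chromosome 5 from 150120401 to 150122200 and chromosome 10 from 17935001 to 17942600. Just outside, at 9800 bp, lay 13 islands, among them those on chromosome 1 from 173379001 to 173380400, chromosome 2 from 84612601 to 84617400 and chromosome 6 from 148179401 to 148182400.

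The most remote islands lay in long stretches where the pachytene list is empty. The 5 farthest were on chromosome 1, inside a stretch of 15.9 Mb from 100252801 to 116131200 with no pachytene island. That stretch held 9 round-spermatid-only islands and no other round spermatid island. Their median width was 2400 bp, and the earliest in the list stood at place 1751. The farthest island ran from 107999801 to 108001600, 1.8 kb wide and 7747 kb from the nearest pachytene island. Others ran from 107760001 to 107761600, from 107624201 to 107628400, from 106978401 to 106983000 and from 109804801 to 109808000, between 6323.2 and 7507.2 kb away. The sixth was on chromosome 4 from 75780801 to 75784800, 5883 kb away, in a stretch of 14.5 Mb that again held 9 round-spermatid-only islands. At 0.567 and 0.623 islands per Mb, both stretches were sparse in round spermatids too, against 1.75 round-spermatid-only islands per Mb over all autosomes.

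By contrast, some stretches between neighbouring pachytene islands were crowded. Of 5405 such stretches, 4684 were long enough to hold an island under the rule, and 1959 of these (41.8%) held at least 1. A single island lay in 979 stretches, 2 to 4 in 820, and 5 or more in 160, which together held 1071 islands or 25.7% of the total. The other 32 islands outside any stretch lay before the first or after the last pachytene island of their chromosome. The fullest stretch, on chromosome 5 from 37212201 to 38189000, held 19 islands in 977 kb. Next came 18 islands in 3.79 Mb on chromosome 5 from 24612001 to 28401800, and 16 in 3.79 Mb on chromosome 7 from 30308001 to 34098400. Then came 15 in 2.56 Mb on chromosome 14 from 69314001 to 71877000, 15 in 8.92 Mb on chromosome 6 from 99831601 to 108748400, and 14 in 1.61 Mb on chromosome 12 from 114912201 to 116525000. The first of these was by far the densest, at 19.5 islands per Mb, and the next densest of the 6 was the one on chromosome 12 at 8.68 per Mb.

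Round-spermatid-only islands had a similar median spacing to pachytene-only islands, but more of them had a close neighbour of their own class. Close round spermatid neighbours of any kind were slightly less frequent than in the whole round spermatid list. The median distance to the nearest other round-spermatid-only island was 99.2 kb, with quartiles of 22.8 and 278.0 kb. Among pachytene-only islands the same median was 93.4 kb, with a lower quartile of 30.6 kb. Another island of the same class lay under 10 kb from 742 round-spermatid-only (17.8%) and 533 pachytene-only islands (13.0%), a difference not tested. Another round spermatid island of any kind lay under 10 kb from 21.1% of the whole list. For the round-spermatid-only islands this was 767 of 4169, or 18.4% (95% interval 17.2 to 19.6), and for those overlapping a pachytene island it was 213 of 957, or 22.3% (95% interval 19.7 to 25.0). The near islands had such a neighbour most often, 193 of 432 or 44.7% (95% interval 39.9 to 49.5), and these differences were not tested. At the short end, 235 of the 4169 round-spermatid-only islands had another exactly 600 bp away, the smallest gap in either list. Among the 4104 pachytene-only islands it was 100. Such neighbours are not independent of each other. The closest other round spermatid island was itself round spermatid only for 3404 islands (81.7%), beside the 75.0% of the list that this class makes up. It was so for 528 overlapping (55.2%) and 181 near islands (41.9%). Close neighbours lie at similar distances from pachytene islands, so these shares are not free of the rule.

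When islands with gaps under 100 kb were put together, about as many stood alone as in company. There were 2081 single islands (49.9%), 589 pairs, 245 groups of 3 to 5 and 10 groups of 6 or more, which held 87 islands. Median width hardly varied, from 3000 bp for single islands to 3200 bp in each of the other sizes. The 193 islands with no other of their class within 1 Mb had a median width of 2800 bp. Of these, 8 (4.15%) were among the first 500 rows, against 8.25% of the class and 9.00% of the whole list, a difference not tested.

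The fullest group lay on chromosome 5 from 37799601 to 38275200 and held 21 islands in 475.6 kb, of which they covered 20.4%. Their widths ran from 2600 to 7800 bp with a median of 4200 bp, and gaps between them ran from 0.6 to 54.8 kb. No other round spermatid island lay within the group, and 1 pachytene island did, from 38189001 to 38192400. The second, on chromosome 17 from 30399401 to 30691400, held 12 islands in 292.0 kb, with widths of 2400 to 8600 bp and a median of 3200 bp. It contained no pachytene island, but the nearest one was 48.8 kb before its first island, at the end of a run of islands of both lists. The median distance of the islands to a pachytene island was 187.8 kb in the chromosome 5 group and 209.9 kb in the chromosome 17 group, both longer than the 124.0 kb of the whole class.

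Although dense, both of these groups stood low in the list, a comparison made after the values were seen. The last 20% of the autosomal rows hold 20.0% of the list by construction and 20.4% of the round-spermatid-only islands. On chromosome 5 it was 11 of 21 islands and on chromosome 17 it was 9 of 12. The widest islands of the chromosome 17 group, from 30577601 to 30586200 and from 30595601 to 30604200, were both 8600 bp wide and stood at places 4639 and 1352. On chromosome 5 the widest island, from 37949401 to 37957200, was 7800 bp wide at place 1365, and the earliest, from 37818001 to 37822000, was 4000 bp wide at place 384. Over all 10 groups of 6 or more islands, 32 of 87 (36.8%) were in the last 20% of rows, 20 of them from these 2 groups. Groups of 3 to 5 did not show this, with 158 of 823 (19.2%).

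The remaining groups of the 6 fullest held 7 or 8 islands each. On chromosome 7 from 44552201 to 44812600 there were 8 islands along with 3 pachytene islands and 1 other round spermatid island, and 3 of the 8 were among the first 500 rows. On chromosome 14 from 75167801 to 75497800 there were 8 islands with none among the first 500. Chromosome 5 from 116935201 to 117145000 held 7, at least 181.0 kb from any pachytene island. Chromosome 7 from 30340401 to 30455600 held 7 in 115.2 kb. The lower places seen on chromosomes 5 and 17 were not common to these groups: 2 of 8, 3 of 8, 1 of 7 and 1 of 7 islands, in the order given, were in the last 20% of rows.

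**Figure D4:**
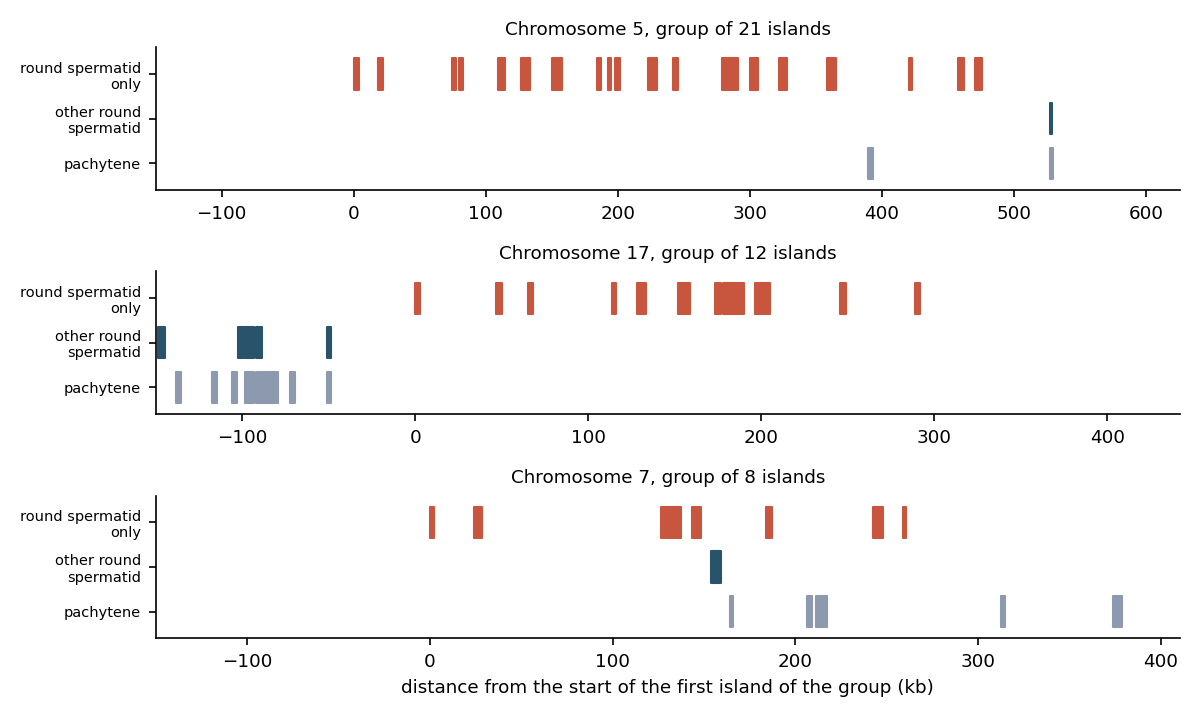
Maps of the 3 fullest groups of round-spermatid-only islands on chromosomes 5, 17 and 7, with 150 kb on each side. Bars are islands to scale, placed by distance (kb) from the start of the group's first island, in 3 rows for round-spermatid-only, other round spermatid and pachytene islands. The group of 12 on chromosome 17 begins 48.8 kb after a crowded run of islands of both lists.

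At the scale of 1 Mb, round-spermatid-only islands were spread over 1595 of 2436 windows (65.5%). A pachytene island was also present in 1214 of these windows, and 381 windows had none. The 381 windows held 733 islands, or 17.7% of those in whole windows. Most islands of this class thus lay in windows where BRDT islands were also listed in pachytene spermatocytes, at other positions. How many of all 2436 windows held a pachytene island was not counted, so this is not shown to be particular to the class. Across the 2436 windows, the number of round-spermatid-only islands went with that of pachytene-only islands (Spearman's rho 0.46), given as a description of windows of 1 genome, whose gene content and base composition were not measured here. Windows with 5 or more round-spermatid-only islands numbered 214 and held 31.7% of the islands in whole windows.

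The fullest windows were on chromosomes 5 and 17. The neighbouring windows at 37 to 38 Mb and 38 to 39 Mb of chromosome 5 held 13 each, beside 3 pachytene islands in each window. Chromosome 17 from 30 to 31 Mb also held 13, beside 6 other round spermatid islands and 13 pachytene islands. Chromosome 14 held 11 from 68 to 69 Mb and 10 from 59 to 60 Mb, and chromosome 7 held 10 from 44 to 45 Mb. Of the windows with no pachytene island, the one at 26 to 27 Mb of chromosome 5 held 10, and those at 100 to 101 Mb of chromosome 6 and 36 to 37 Mb of chromosome 8 held 9 each. The last 3 windows were chosen after their values were seen.

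The surroundings of these islands were thinner than those of islands shared with pachytene spermatocytes. Within 500 kb of its midpoint, a round-spermatid-only island had a median of 3 other round spermatid islands (quartiles 2 and 5), an overlapping island a median of 4 (quartiles 2 and 6) and a near island a median of 5 (quartiles 3 and 7). No other round spermatid island lay that close to 389 round-spermatid-only islands (9.33%), against 48 overlapping islands (5.02%). The rule favours places where pachytene islands are sparse, and the lists are sparse in the same regions, so this difference is not free of the rule and was not tested. Pachytene-only islands also had a median of 3 round spermatid islands within 500 kb (quartiles 2 and 5). None lay that close to 341 of them (8.31%), so thin surroundings were not particular to round-spermatid-only islands.

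Chromosome 5 carried the most round-spermatid-only islands and had the highest density. It held 356 islands, 8.54% of all (95% interval 7.71 to 9.43), or 2.39 per Mb from the first to the last listed position. Chromosome 5 also held the most islands of the whole autosomal round spermatid list, 430 of 5558. The density of that list per autosome was not computed. Chromosome 1 was the sparsest at 1.39 per Mb, and chromosome 3 had the same density to 2 decimals. The density thus varied 1.72-fold between autosomes. Chromosomes 11 (2.13 per Mb), 7 (2.04) and 16 (2.02) followed chromosome 5. Without its fullest group of 21 islands the density of chromosome 5 was 2.25 per Mb, still above that of chromosome 11.

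The balance between the stages varied among the autosomes, and with 1 library per stage it was not tested. Round-spermatid-only islands outnumbered pachytene-only islands on 10 of 19 autosomes and were fewer on 9. The ratio was highest on chromosome 14 (224 against 153, ratio 1.46), chromosome 5 (356 against 245, ratio 1.45) and chromosome 13 (197 against 138, ratio 1.43). It was lowest on chromosome 15 (167 against 230, ratio 0.726), chromosome 9 (202 against 276, ratio 0.732) and chromosome 19 (103 against 138, ratio 0.746). As a share of the round spermatid list, this class ran from 63.7% on chromosome 17 (95% interval 57.5 to 69.7) to 82.8% on chromosomes 5 and 13 (95% intervals 78.9 to 86.2 and 77.4 to 87.3). Pachytene islands, which the rule uses, numbered 3.10 per Mb on chromosome 17, 2.11 on chromosome 5 and 1.52 on chromosome 13, and the relation of the share to their density was not tested. Widths varied little, with medians between 2800 bp on chromosome 18 and 3400 bp on chromosomes 7, 8 and 19.

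**Figure D5:**
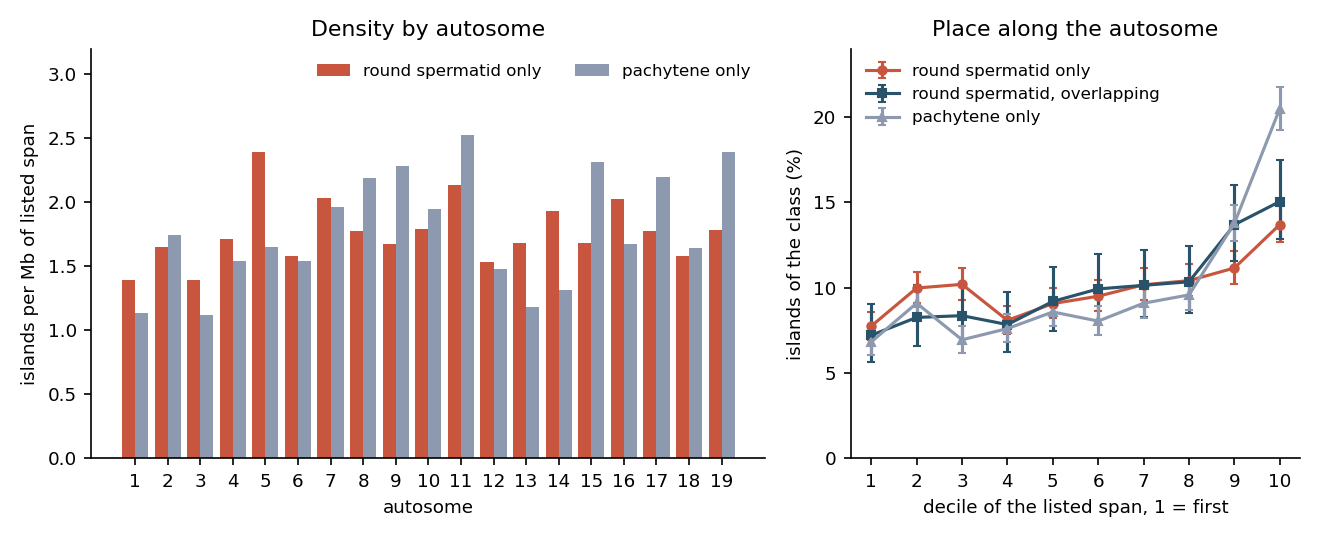
Left, islands per Mb of listed span for round-spermatid-only and pachytene-only islands on each autosome. Right, share of islands (%, with exact 95% intervals) in each decile of the listed span of the autosome they lie on. Chromosome 5 stands out at 2.39 round-spermatid-only islands per Mb. The last decile holds 13.7% of round-spermatid-only and 15.0% of overlapping against 20.5% of pachytene-only islands.

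Along the autosomes, round-spermatid-only islands were more evenly placed than pachytene-only islands. Mouse autosomes have their centromere at the low-coordinate end, so the last decile of the span lies next to the far telomere. That decile held 571 round-spermatid-only islands, or 13.7% (95% interval 12.7 to 14.8), and the first decile held 323, or 7.75% (95% interval 6.95 to 8.60). Pachytene-only islands were more concentrated, with 841 in the last decile, or 20.5% (95% interval 19.3 to 21.8), and 280 in the first, or 6.82%. Islands overlapping between the lists had 15.0% in the last decile (95% interval 12.8 to 17.5). The near islands, which the rule leaves out, had 18.75% (95% interval 15.2 to 22.8). In the first decile the overlapping islands had 7.21% and the near islands 7.18%. The rule removes round spermatid islands close to pachytene islands, so the placing of this class along the autosome is not free of it. In the third decile the sets differed the other way, with 10.2% of round-spermatid-only (95% interval 9.29 to 11.2) and 6.94% of pachytene-only islands (95% interval 6.19 to 7.77). There the overlapping islands had 8.36% (95% interval 6.68 to 10.3) and the near islands 8.10% (95% interval 5.71 to 11.1). The share of the whole round spermatid list in each decile was not computed, so these values are not shown to be particular to the class. The intervals cover counting error only and take islands as independent, which neighbours are not, and no test of these differences was made.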

How the data were processed

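BRDT ChIP-seq islands from 1 library of round spermatids and 1 of pachytene spermatocytes were compared. Reads were aligned with Bowtie to mm8 and islands called with SICER, per the submitters' processing notes and the file headers. For versions, window and gap settings and the use of IgG reads the sources used here give no values. The authors deposited 3 columns per island: chromosome, start and end in base pairs. A tag in the names of the deposited lists was read as an FDR of 10%. All starts are 1 above a multiple of 200 bp and all ends are multiples of 200 bp, so positions were read as 1-based and inclusive. Distances are the bases between island edges.

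Computations used scipy 1.17.1, pandas 2.3.3 and numpy 2.4.6 under Python 3.11.15, with matplotlib 3.10.9 for plots. Classification, distances and joining were checked on planted islands. Intervals are exact Clopper-Pearson 95%. No test between stages was made, since each has 1 library and the rule used both lists. Place means rank among autosomal rows. Regions named are the 12 widest, the widest per autosome, the 6 farthest, the 6 fullest groups (gaps under 100 kb), windows and stretches, the narrowest, and 3 islands on each side of the limit. The members and lists were chosen with earlier results of these data known. Alternatives changed the limit, the lists, the joining and the windows. Sorting by gene context and the gene lists planned for it were not made, as no mm8 gene models were used.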

Additional observations from a re-analysis of the deposited data

How the results depend on the processing

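Of 29 recalculations under alternatives, 11 moved by more than 1.5 times for a count, or outside the 95% interval for a median or share. The number of round-spermatid-only islands (4169, 75.0%) was 4601 (82.8%) with no minimum distance, 4372 (78.7%) at 5 kb, 3125 (56.2%) at 50 kb and 2334 (42.0%) at 100 kb. Without the narrower 50% of both lists it was 2362 of 2779 islands (85.0%), and with only the round spermatid list so reduced it was 2055 (73.9%). Alternatives chosen after seeing the data kept the first 50% of rows: 2053 islands (73.9%) with the pachytene list whole and 2355 (84.7%) with both reduced. Fewer islands enter each of these counts by construction, and fewer pachytene islands raise the share. The median width of 3200 bp became 3800 bp in the first 50% of rows and 2800 bp in the last 50%, both chosen after seeing the data, against 4000 and 2800 bp for the other round spermatid islands there. The median distance of 124.0 kb became 258.8 kb to the widest 50% of pachytene islands. Groups of 2 or more numbered 844, 654 with gaps under 50 kb and 968 with gaps under 200 kb, and 306 in the first 50% of rows (chosen after seeing the data), where the fullest held 7 islands in place of 21. Windows with an island made up 65.5% at 1 Mb, 46.45% at 500 kb and 96.0% at 5 Mb. The share on chromosome 5 and the share in the last decile of the span stayed within the intervals of the reported values under the alternatives run for them, of which the first 50% of rows for the last decile was chosen after seeing the data. So was leaving out the 6 fullest groups, which left the median width at 3200 bp. Read depth is unknown, which limits any statement on absence. No paired analysis was possible because each stage has 1 BRDT library and no result comes from a test across samples.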

Other observations

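Outside the autosomes, the same rule gave 31 round-spermatid-only islands of 37 on X and 22 of 23 on Y. Their median widths were 2200 bp on X and 1900 bp on Y. None stood among the first 500 rows of the round spermatid list, and their median rows were 5165 on X and 5433 on Y of 5618 rows in all. Among autosomal islands 9.00% were in the first 500 autosomal rows. The pachytene list had 5452 islands with X and Y and 5424 without. Few pachytene islands were thus there to match, and the counts by the rule are not free of this.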
